A study of Mus musculus with 6 samples.

Results

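The genes described here build the chromosome axis and the synaptonemal complex of meiosis, or lead germ cells into it: Hormad1, Sycp3, Sycp1, Syce2, Rec8, Stag3, Smc1b, Stra8, Dazl and Tex19.1. They were taken by name, as all probe sets whose platform annotation gave exactly 1 gene symbol equal to one of these 10, which gave 11 probe sets out of 23344 and 10 genes out of 19308. Levels were compared between 3 iPS arrays (induced pluripotent stem cells) and 3 ntES arrays (embryonic stem cells from cloned embryos). Both groups were reprogrammed from tail-tip fibroblasts of generation 3 (G3) Terc-/- mice, which lack the RNA template of telomerase, and both were grown over mouse embryonic fibroblasts stopped with mitomycin C. No source used here gives the age of the mice, the reprogramming factors or their vector. The design speaks of biological repeats of each cell line. Each p-value thus sets a difference only against the scatter of these samples, which may be technical. Whether a group holds more than 1 line is not stated. If it does not, a line's own traits and the way of reprogramming cannot be told apart. No array of fibroblasts, or of cells with Terc, was analysed here.

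In meiotic prophase each pair of sister chromatids is folded into loops along a protein axis. The axis is made of meiotic cohesin (Rec8, Stag3 and Smc1b in place of their mitotic counterparts), the filament protein Sycp3 and the HORMA-domain protein Hormad1, which recruits the machinery for DNA breaks and marks unsynapsed axes. Homologous axes are then zipped together by the transverse filament protein Sycp1 and by central element proteins such as Syce2. Stra8, a transcription factor induced by retinoic acid, starts the programme in germ cells made competent by the RNA-binding protein Dazl. Tex19.1 is needed for spermatogenesis, and is known from germ cells, placenta and pluripotent cells. Embryonic stem cells are not meiotic. Many of these genes are held down in them by DNA methylation and by PRC1.6, a polycomb complex that reaches DNA through the E-box binding pair MGA and MAX and through E2F6.

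The promoters are shown for the letters bound by the E-box and E2F parts of PRC1.6, of which Hormad1 alone has both kinds complete in the stretches printed here. The lines give the 250 bases before the annotated start of the 4 genes that passed the test below (5′ to 3′, RefSeq, GRCm38.p6), with each complete CACGTG (E-box) and each GCGGGA or its complement TCCCGC (E2F type) in capitals. For Hormad1 and Syce2, which have 2 annotated starts, the upstream one is shown.
Hormad1, chr3:95559427-95559676, plus strand: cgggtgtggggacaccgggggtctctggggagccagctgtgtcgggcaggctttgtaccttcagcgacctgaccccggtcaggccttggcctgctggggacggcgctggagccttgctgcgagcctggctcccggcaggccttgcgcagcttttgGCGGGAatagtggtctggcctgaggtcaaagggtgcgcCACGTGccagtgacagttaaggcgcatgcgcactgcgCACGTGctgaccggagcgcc
Syce2, chr8:84871861-84872110, plus strand: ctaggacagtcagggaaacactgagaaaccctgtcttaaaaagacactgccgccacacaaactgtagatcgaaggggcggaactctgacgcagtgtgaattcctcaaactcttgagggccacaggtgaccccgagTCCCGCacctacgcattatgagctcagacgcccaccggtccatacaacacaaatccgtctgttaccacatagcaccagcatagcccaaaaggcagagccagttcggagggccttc
Stag3, chr5:138280259-138280508, plus strand: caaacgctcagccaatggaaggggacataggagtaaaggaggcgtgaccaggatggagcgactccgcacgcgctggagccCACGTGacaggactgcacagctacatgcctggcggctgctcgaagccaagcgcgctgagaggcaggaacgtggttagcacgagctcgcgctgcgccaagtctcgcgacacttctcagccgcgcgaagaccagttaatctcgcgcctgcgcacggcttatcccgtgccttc
Tex19.1, chr11:121145893-121146142, plus strand: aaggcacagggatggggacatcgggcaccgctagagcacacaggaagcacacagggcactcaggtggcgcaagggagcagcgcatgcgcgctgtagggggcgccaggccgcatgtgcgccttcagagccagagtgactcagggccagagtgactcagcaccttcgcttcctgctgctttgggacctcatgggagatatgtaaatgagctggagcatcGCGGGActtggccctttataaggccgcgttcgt

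All 10 genes were found in the RefSeq promoter table, with 12 windows of 300 bases (250 before to 50 after a start). CACGTG, which reads the same on both strands, was in a window of 5 of the 10 (50%), against 8.09% of the 27025 genes of the table. GCGGGA on either strand was in 8 of the 10 (80%), against 22% of all genes. Hormad1, Sycp3, Sycp1, Stag3 and Syce2 held both, as did 2.32% of all genes. In Hormad1 the E2F-type match began 95 bases before the upstream start, and the E-boxes began 57 and 20 bases before it. The Stag3 E2F-type match began 2 bases before the start and ran into the transcript, so that it is not in capitals above. Syce2 held an E-box only in the window of its second start. Stra8 and Dazl held neither in these windows. The windows of the 10 genes had 10 to 33 CpG, with a median of 22.5, against a median of 7 over all 32851 windows. Both motifs hold a CpG, and their shares were not compared with those of windows equally rich in CpG. A match is a description of letters, and binding or methylation was not measured here.

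**Figure D1:**
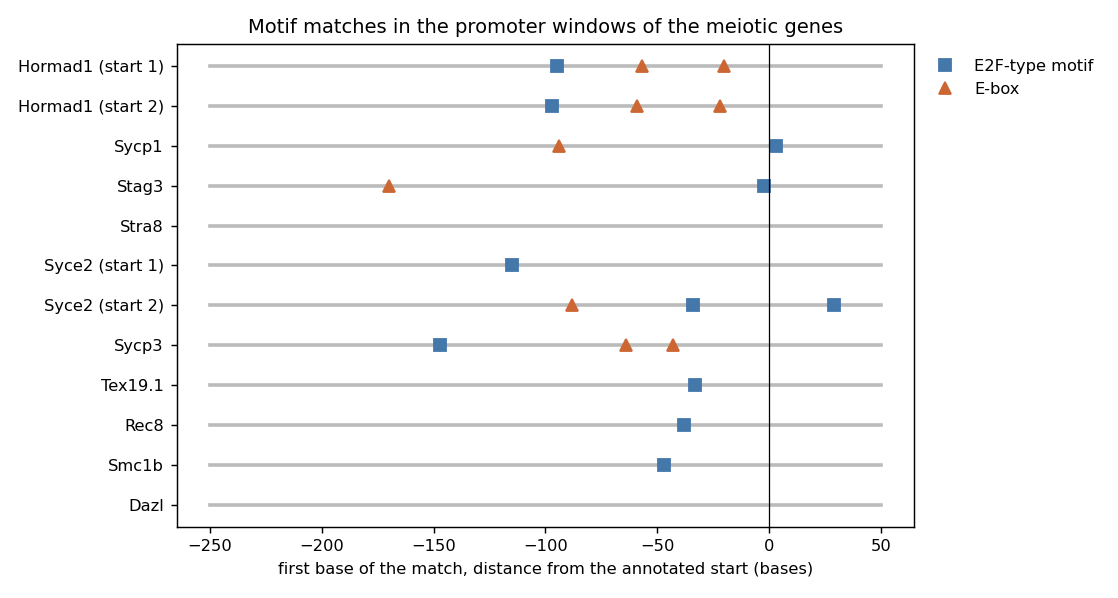
Each grey line is 1 promoter window, from 250 bases before to 50 after an annotated start (RefSeq, GRCm38.p6), with the first base of each E-box match as a triangle and of each E2F-type match as a square. Hormad1, Sycp1, Stag3, Sycp3 and the second start of Syce2 carry both kinds, and Stra8 and Dazl neither.

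Between the groups, 3 of the 10 genes rose in ntES cells and 1 fell. Hormad1 of the axis, Syce2 of the central element and Tex19.1 rose by 0.45, 0.45 and 0.34 on the log2 scale, which is 1.37-fold, 1.37-fold and 1.27-fold. Stag3 of the meiotic cohesin fell by 0.38, which is 1.30-fold. The other 6 genes did not pass an adjusted p of 0.05 (limma, Benjamini-Hochberg over all 23344 probe sets). Their counts are a description, since the genes were chosen with earlier results of these data known. As a background, 11.4% of all 19308 named genes passed, 5.25% as higher and 6.16% as lower in ntES cells, each gene by its brightest probe set. Of the 10 genes 5 lay above 0 and 5 below, with a median difference of 0.06 against 0.04 over all named genes. Groups did not overlap for 6 of the 10, against 26.8% of all named genes.

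The calls were close to the threshold. After centring each array on its median 2 of the 10 passed, both lower: Stag3, the only one of the 4 calls that was kept, and Rec8, which was not called before. The same step moved the share of higher calls among all called probe sets from 45.9% to 30.1%. With 1 array left out, limma called 0 genes when that array was iPS replicate 1, iPS replicate 2 or ntES replicate 2, 1 without iPS replicate 3, 3 without ntES replicate 3 and 5 without ntES replicate 1. By limma's unadjusted p under 0.05, 5 of the 10 passed in each of these 3 cases, as in the full comparison.

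**Figure D2:**
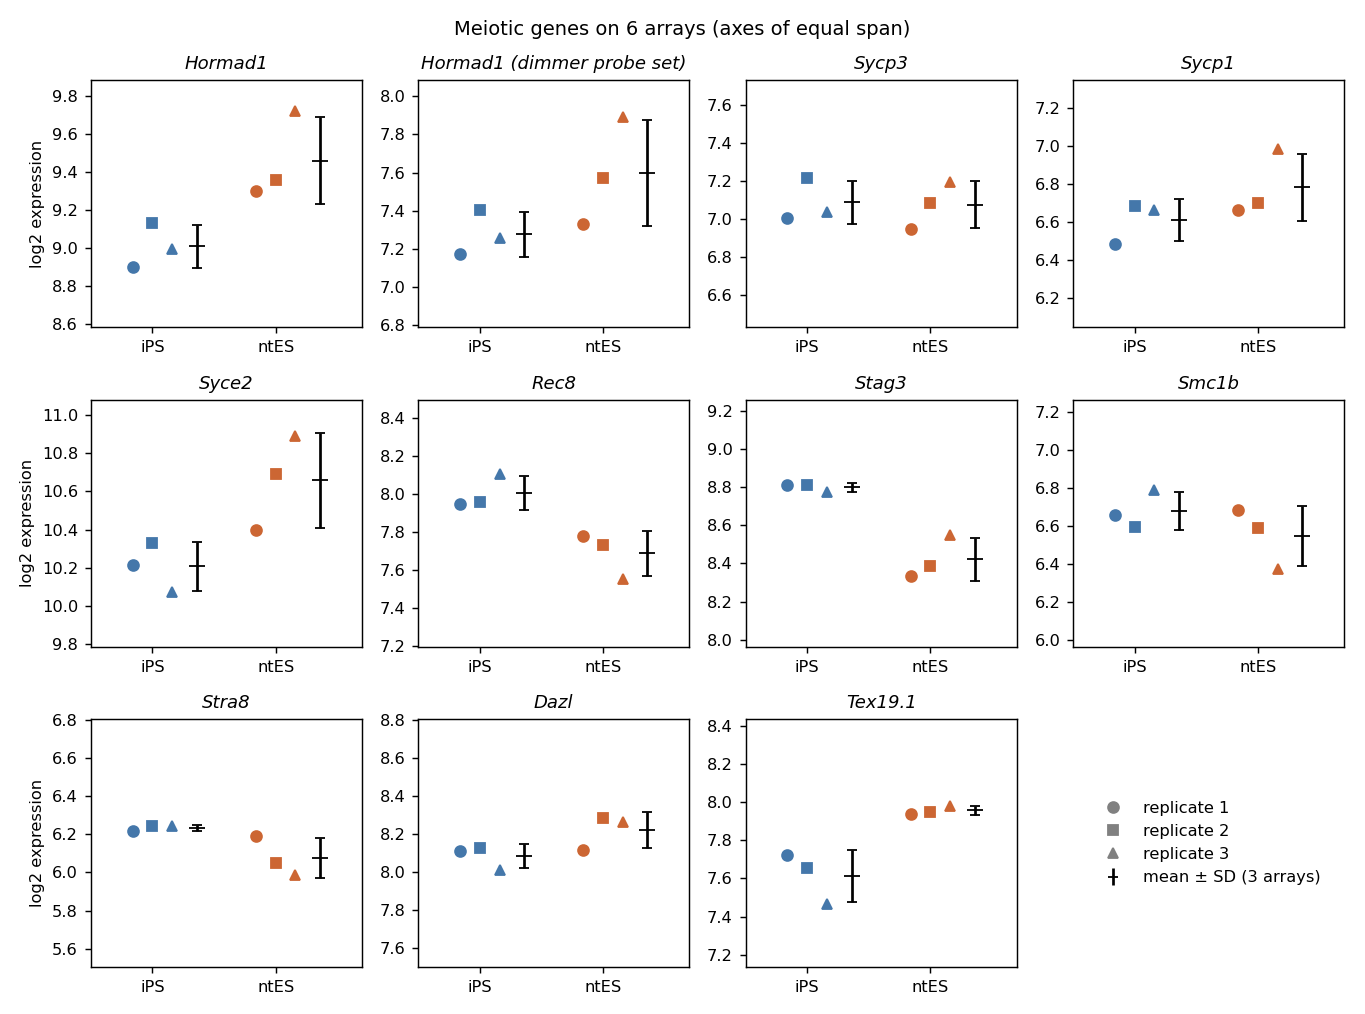
Each panel shows 1 probe set, with its log2 expression on the 3 iPS (blue) and 3 ntES arrays (orange) and the mean ± SD beside them, with the same span on every vertical axis. Hormad1, Syce2 and Tex19.1 are higher and Stag3, Rec8 and Stra8 lower on all 3 ntES arrays, while Sycp3, Sycp1, Smc1b and Dazl overlap.

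Of the axis proteins, Hormad1 read 8.90, 9.13 and 8.99 on iPS arrays 1 to 3 and 9.30, 9.35 and 9.72 on ntES arrays 1 to 3 (log2, probe set 10494281). Every ntES array was above every iPS array, and ntES replicate 3 was the highest of the 6. The means were 9.01 ± 0.11 and 9.46 ± 0.23 (SD, n = 3 each), and the difference was 0.45 ± 0.12 (SE; adjusted p = 0.0337, limma). Hormad1 passed in 7 of 14 other settings, among them quantile normalization (0.50, adjusted p = 0.00122). Hormad1 kept its direction but did not pass after median centring (0.39, adjusted p = 0.0635), with the mean of its probe sets (0.39, 0.0741) or without moderated variances (adjusted p = 0.22). Its adjusted p was 0.164, 0.0744 and 0.086 with iPS replicates 1, 2 and 3 left out in turn, and 0.0894 without ntES replicate 2. Another probe set named for Hormad1, 10536427, was dimmer, at 7.17, 7.40 and 7.25 on iPS and 7.33, 7.57 and 7.89 on ntES arrays. Its groups overlapped, and its difference of 0.32 ± 0.13 did not pass (adjusted p = 0.163), though it did without ntES replicate 1 (0.46, adjusted p = 0.0228). Which part of the transcript, or which copy, each probe set reads is not known here.

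Sycp3, which forms the fibres of the axis, read 7.01, 7.22 and 7.04 on iPS and 6.95, 7.08 and 7.20 on ntES arrays. The groups overlapped throughout, and the difference was -0.01 with a 95% interval from -0.22 to 0.20 (adjusted p = 0.954).

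Of the synaptonemal complex, Syce2 read 10.22, 10.33 and 10.07 on iPS and 10.40, 10.69 and 10.89 on ntES arrays. The groups did not overlap, but iPS replicate 2 and ntES replicate 1 were only 0.07 apart. The means were 10.21 ± 0.13 and 10.66 ± 0.25 (SD, n = 3 each), and the difference was 0.45 ± 0.12 (SE; adjusted p = 0.0427, limma). Within ntES cells the order of the arrays was also that of their spread over all probe sets, with an SD of 1.51, 1.61 and 1.74. This was not particular to Syce2. Hormad1, Stag3, Tex19.1, Sycp3 and Sycp1 had the same order of ntES arrays, and Rec8, Smc1b and Stra8 the reverse. After quantile normalization, which gives all arrays 1 distribution, Syce2 differed by 0.50 (adjusted p = 0.000169). Median centring ended the call of Syce2 (0.39, adjusted p = 0.0773), as did variances that were not moderated (0.249). So did the loss of iPS replicates 1, 2 or 3 (0.148, 0.089 and 0.13) or of ntES replicates 2 or 3 (0.174 and 0.0569).

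Sycp1, the protein that spans the gap between paired axes, read 6.48, 6.69 and 6.67 on iPS and 6.67, 6.70 and 6.99 on ntES arrays. The lowest array was iPS replicate 1 and the highest ntES replicate 3, and the other 4 lay close together, so that the groups overlapped. The difference of 0.17, with a 95% interval from -0.06 to 0.41, did not pass (adjusted p = 0.353).

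The 3 meiotic cohesin subunits chosen here, Stag3, Rec8 and Smc1b, lay below 0, and 1 of them fell. Rad21l, a further meiotic subunit that is counted below with the core cohesin genes, was dim and did not share this direction. Its groups overlapped, with a difference of 0.02 (adjusted p = 0.914, limma). Stag3, the subunit found in all meiotic cohesin complexes, read 8.81, 8.81 and 8.77 on iPS and 8.33, 8.39 and 8.55 on ntES arrays. The iPS arrays were nearly equal, and every ntES array was lower. The means were 8.80 ± 0.02 and 8.42 ± 0.11 (SD, n = 3 each), with a difference of -0.38 ± 0.08 (SE; adjusted p = 0.0173, limma). Stag3 passed after median centring (-0.43, adjusted p = 0.01) and quantile normalization (-0.35, adjusted p = 0.000487). The call ended without moderated variances (0.0775), and with iPS replicate 1 (0.0859), iPS replicate 2 (0.0963) or ntES replicate 2 (0.112) left out.

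Rec8, the kleisin that closes the meiotic cohesin ring, read 7.95, 7.96 and 8.10 on iPS and 7.78, 7.73 and 7.55 on ntES arrays. The groups did not overlap, with ntES replicate 3 the lowest. Its difference of -0.32, with a 95% interval from -0.52 to -0.11, just missed the threshold (adjusted p = 0.0509). Rec8 passed in 7 of 14 other settings, among them median centring (-0.37, adjusted p = 0.0216), quantile normalization (-0.35, 0.00757) and without ntES replicate 1 (-0.36, 0.0298). Rec8 did not pass with arrays paired by replicate number (0.154) or without moderated variances (0.167). Nor did it with iPS replicates 1, 2 or 3 (0.13, 0.15 and 0.157) or ntES replicates 2 or 3 (0.162 and 0.0534) left out.

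Smc1b, the meiotic SMC ATPase, was dim and read 6.66, 6.59 and 6.79 on iPS and 6.68, 6.59 and 6.38 on ntES arrays. The groups overlapped, and the difference of -0.13 (95% interval from -0.35 to 0.09) did not pass (adjusted p = 0.46). It passed after quantile normalization (-0.22, adjusted p = 0.0077).

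**Figure D3:**
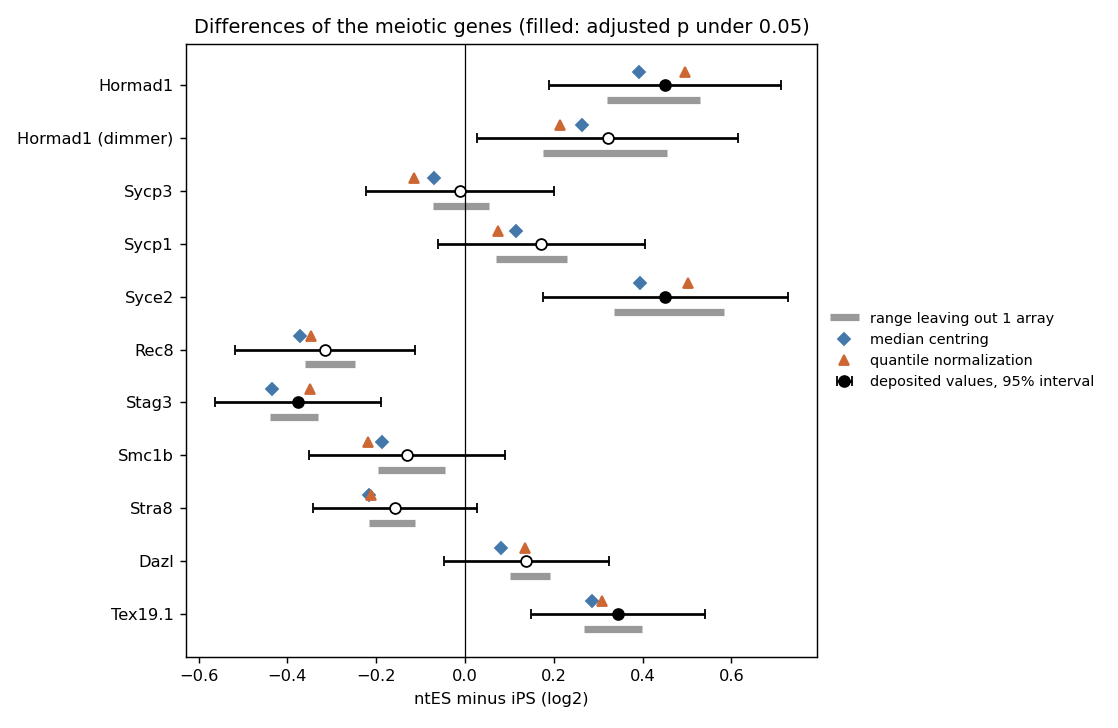
Points give the difference ntES minus iPS (log2) of each probe set with its 95% interval, filled where the adjusted p was under 0.05; diamonds and triangles give it after median centring and quantile normalization, and grey bars its range when 1 array was left out. Only Sycp3 has a grey bar that crosses 0, and Stag3, Rec8, Smc1b, Stra8 and Sycp3 lie below 0 under all 3 scalings.

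Among the genes of germ cell identity and meiotic entry, Tex19.1 read 7.72, 7.65 and 7.46 on iPS and 7.94, 7.95 and 7.98 on ntES arrays. The ntES arrays were nearly equal, and all 3 were above the iPS arrays. The means were 7.61 ± 0.13 and 7.96 ± 0.02 (SD, n = 3 each), and the difference was 0.34 ± 0.09 (SE; adjusted p = 0.0312, limma). Tex19.1 passed in 7 of 14 other settings, among them quantile normalization (0.31, adjusted p = 0.0115). The call of Tex19.1 ended after median centring (0.29, adjusted p = 0.0729) and without moderated variances (0.123). It also ended when iPS replicates 1, 2 or 3 (0.0621, 0.113 and 0.11) or ntES replicate 2 (0.143) were left out.

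Dazl read 8.11, 8.13 and 8.01 on iPS and 8.12, 8.28 and 8.26 on ntES arrays. The lowest ntES array fell within the iPS range, and the difference of 0.14 (95% interval from -0.05 to 0.32) did not pass (adjusted p = 0.347). Stra8, the dimmest of the 10 probe sets relative to its array, read 6.22, 6.24 and 6.24 on iPS and 6.19, 6.05 and 5.98 on ntES arrays. Its groups did not overlap, and the difference of -0.16 (95% interval from -0.34 to 0.03) did not pass (adjusted p = 0.278), except after quantile normalization (-0.21, adjusted p = 0.00896).

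Signals of different probe sets do not rank genes, and are given here only as a sign of how far a probe set stood above the dimmest ones. The means of Hormad1, Syce2, Stag3, Rec8, Dazl and Tex19.1 were above the median probe set of 7.66, Syce2 at the 92.0th and Hormad1 at the 77.5th percentile. Sycp3, Sycp1, Smc1b and Stra8 were below it, at the 36.8th, 26.3th, 23.9th and 13.0th percentile. Background adds to the signal of a dim probe set and makes its fold change too small. In cultures of mixed cells a change in the share of expressing cells and a change in RNA per cell cannot be told apart.

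The genes nearest in order on the chromosome, 5 measured on each side, were read beside the 4 called genes, and no neighbour of a gene that rose passed as higher. Around Hormad1 on chromosome 3 the 10 neighbours had a median of -0.13, and 1 passed, Ensa, an inhibitor of protein phosphatase 2A, at -0.32. Of its flanking genes, Ctss read 0.34 and Golph3l -0.38, with adjusted p of 0.074 and 0.0574. The neighbours of Syce2 on chromosome 8 had a median of 0.05, with Gcdh, a mitochondrial enzyme of lysine breakdown, passing at -0.37. Those of Stag3 on chromosome 5 had a median of -0.02, with Gm10874 passing at -0.38. None of the neighbours of Tex19.1 on chromosome 11 passed, and 6 of the 10 were above 0. Its paralog Tex19.2, which lies beside it, read 0.31 with an adjusted p of 0.0798. Rec8 on chromosome 14, which was not called, was added after its values were seen. Its 10 neighbours had a median of -0.04, and 1 passed, the adjacent Irf9, at -0.73 (adjusted p = 0.000793, limma). Whether the 2 differences are linked was not tested. Gene order came from the GRCm38.p6 table of RefSeq, which located 19263 of the 19308 named genes.

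**Figure D4:**
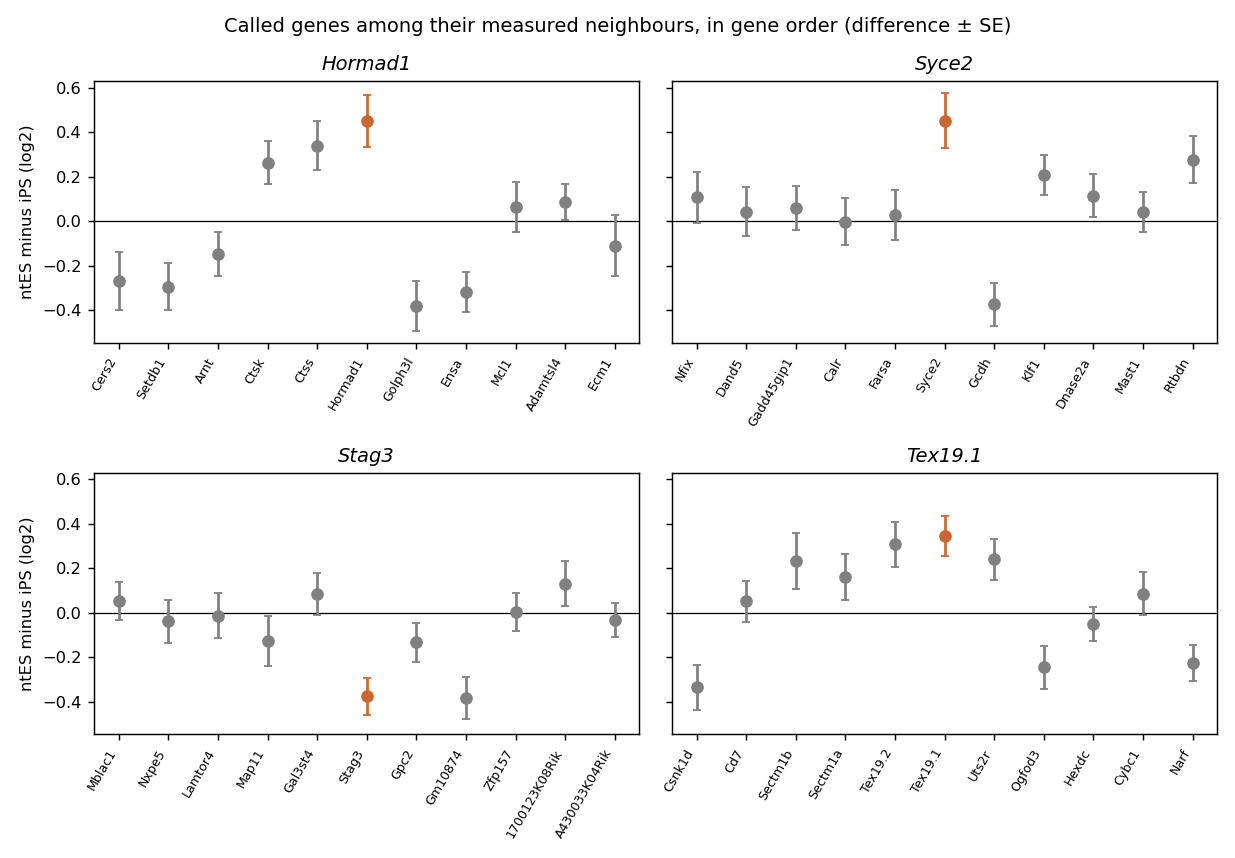
Each panel shows a called gene (orange) with the 5 nearest measured genes on either side in gene order (grey), as difference ntES minus iPS (log2) ± SE. Hormad1, Syce2 and Tex19.1 are the highest and Stag3 lies with Gm10874 at the lowest points of their panels.

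For each called gene the 3 named genes with the closest profile were sought, by the root-mean-square distance (RMS, log2) between profiles centred on their own mean over the 6 arrays. Hormad1 was closest to Banp, Dnajb6 and Usp28 (RMS 0.05 for each). Syce2 was closest to Rpf1, Eif4a2 and Lrrc40 (0.01, 0.03 and 0.03), and Stag3 to Chd1l, Tead4 and Zfhx2 (0.02 for each). Tex19.1 was closest to Tmem41b, Ccl3 and Slc44a4 (0.02, 0.03 and 0.04). None of these 12 is a gene of the 10. With only 3 taken per gene out of 20746 probe sets with 1 symbol, this says little about whether the 10 genes move together. That was not tested.

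Outside the 10, other meiotic genes changed by more. In 6 lists of meiotic and germline genes and their repressors, 108 further genes were measured. Of these 13 passed, which is 12.0% and close to the 11.4% of all named genes, with 9 higher and 4 lower in ntES cells and a median of 0.02. This count was 44 after quantile normalization, and 7 without iPS replicate 1, 6 without iPS replicate 2, 7 without ntES replicate 2 and 30 without ntES replicate 3.

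Partners of the axis and synaptonemal complex had 1 call in each direction among 15 measured genes, with a median of 0.03. Hormad2, the paralog of Hormad1 that also marks unsynapsed axes, rose by 0.65, from 6.99, 6.92 and 7.20 on iPS to 7.60, 7.74 and 7.70 on ntES arrays (adjusted p = 0.00184). The 2 groups lay well apart. The gene listed as 4930447C04Rik, also named Six6os1, encodes a central element protein and went from 8.19, 8.30 and 8.19 to 7.08, 7.32 and 7.46. It fell by 0.94 (adjusted p = 0.000398), opposite to Syce2, which belongs to the same central element, and it passed in all 14 other settings. Hormad2 failed to pass only without moderated variances (0.0569).

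Among 21 genes of meiotic break formation and recombination, 2 rose and 2 fell, with a median of -0.0022. Rec114, a cofactor of the enzyme that cuts DNA in meiosis, had the largest difference of these lists, and rose by 1.01 from 8.28, 8.28 and 8.27 to 9.12, 9.22 and 9.53 (adjusted p = 0.000303). Tex15, known from meiotic recombination and transposon silencing, rose by 0.66 (adjusted p = 0.00283) and did not pass without moderated variances (0.0808). Mlh3, a mismatch repair protein of crossovers, fell by 0.46 (adjusted p = 0.024) and lost its call, at differences of -0.42, -0.44 and -0.46, with iPS replicate 1 (0.12), iPS replicate 2 (0.117) or ntES replicate 2 (0.111) left out. The fourth, Hfm1, a crossover helicase named after its values were seen, changed by -0.36 (adjusted p = 0.0187).

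Of 16 core cohesin subunits and regulators, 0 passed by limma's adjusted p, and the median was 0.01. The lowest p values were those of Cdca5 and Esco2, which serve sister cohesion in dividing cells, at -0.37 and -0.27 (adjusted p = 0.0769 and 0.213). Both passed without ntES replicate 3 (-0.47 and -0.38, adjusted p = 0.017 and 0.0349) and after quantile normalization, where 7 of the 16 passed. Of 13 genes of meiotic entry and progression, Rarg, a retinoic acid receptor, rose by 0.34 (adjusted p = 0.0199), and Ccna1, the meiotic A-type cyclin, fell by 0.44 (adjusted p = 0.007). Rarg lost its call with iPS replicate 1, 2 or 3 or ntES replicate 2 left out (0.0775, 0.0831, 0.0768 and 0.122), and Ccna1 without iPS replicate 2 (0.0542).

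Of 26 repressors of germline genes, 3 passed, all as higher, with a median of -0.01. These were the DNA methyltransferase genes Dnmt3a and Dnmt3b and the related gene Dnmt3l. They rose by 0.58, 0.44 and 0.67 (adjusted p = 0.00175, 0.0243 and 0.00849), each read by its brightest probe set. No subunit of PRC1.6 passed on its brightest probe set, but Pcgf6, Cbx3 and Rybp lay just over the threshold at -0.40, -0.40 and -0.44 (adjusted p = 0.0532, 0.0547 and 0.0554). Dimmer probe sets of Cbx3 (10346549) and Rybp (10410209) passed as lower, at -0.52 and -0.59 (adjusted p = 0.022 and 0.0281); these 3 genes were named after their values were seen. The count of 3 was not stable: 5 of the 26 passed after median centring or with the mean of a gene's probe sets, 6 with only probe sets of 1 symbol or without dim ones, 15 after quantile normalization, 1 without moderated variances and 8 without ntES replicate 3. Dnmt3b lost its call after median centring (0.0501), and with iPS replicate 1, 2 or 3 or ntES replicate 2 left out (0.0695, 0.0842, 0.086 and 0.115). Without moderated variances neither Dnmt3b (0.171) nor Dnmt3l (0.148) passed. Of 18 genes listed as methylation-sensitive germline genes, 2 rose, and the median was 0.15. These were Tktl1, a transketolase-like gene, by 0.40 and the testis tubulin Tuba3a by 0.29 (adjusted p = 0.024 and 0.0404). Not all of the 18 were dim: 11 lay below the median probe set, while Hspb1 had a mean of 12.1. Tktl1 lost its call with iPS replicate 1 (0.113), iPS replicate 2 (0.0847) or ntES replicate 2 (0.122) left out. Tuba3a lost its call after median centring (0.0866), and with iPS replicate 1, 2 or 3 or ntES replicate 2 left out (0.159, 0.164, 0.0991 and 0.233).

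**Figure D5:**
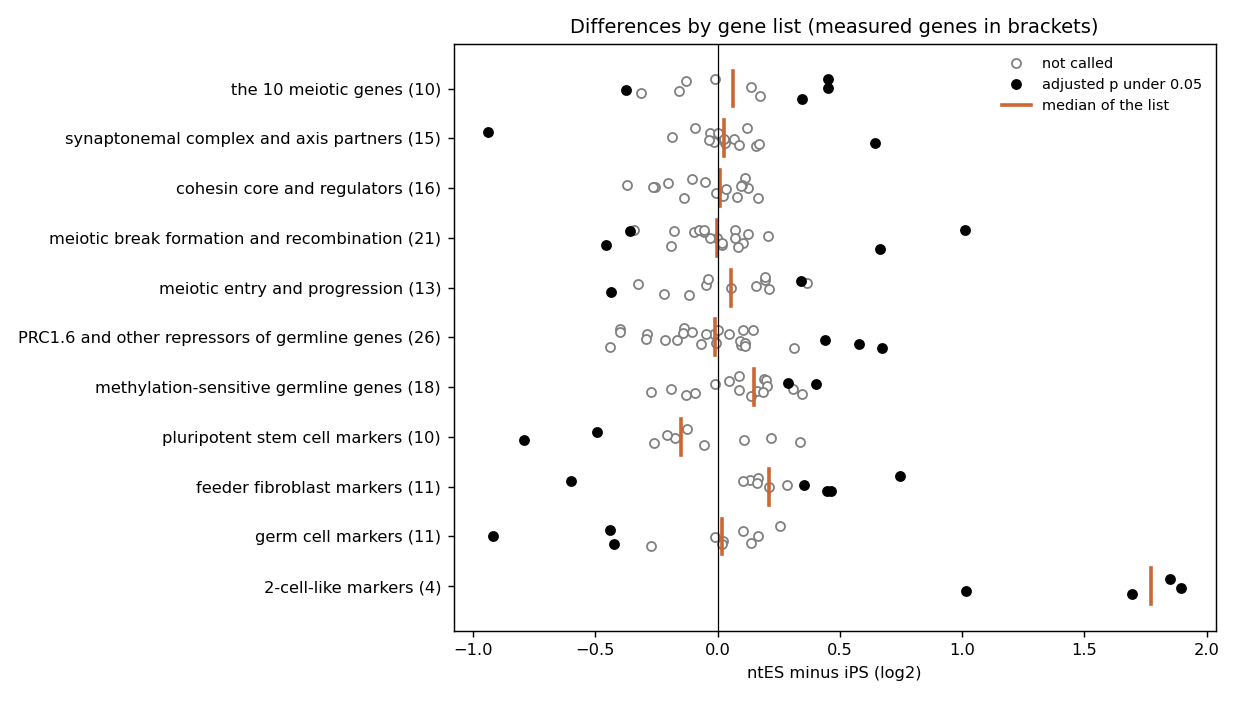
Each point is 1 measured gene, placed by its difference ntES minus iPS (log2), filled where the adjusted p was under 0.05, with the list's median as an orange bar and points spread vertically only for sight. The medians of the 10 meiotic genes and of 5 of the meiotic lists lie between -0.01 and 0.06. That of the methylation-sensitive germline genes, which include Dazl, lies at 0.15, and the 4 genes of the 2-cell-like state lie between 1.02 and 1.89.

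Markers of the cell types that such cultures can hold were read beside these values. The 10 markers of pluripotent stem cells were all above the median probe set, and their mean was 11.2 to 11.4 on iPS and 10.99 to 11.4 on ntES arrays. None rose and 2 fell, Esrrb by 0.79 (adjusted p = 0.00135) and Zfp42 by 0.49 (adjusted p = 0.0185), the latter losing its call with iPS replicate 1 (0.0954), iPS replicate 2 (0.11) or ntES replicate 2 (0.0827) left out. Of 11 germ cell markers, none rose and 3 fell, Tfap2c by 0.92, Kit by 0.44 and Prdm1 by 0.42 (adjusted p = 0.000339, 0.0252 and 0.00718). These 3 are also expressed outside germ cells. Kit and Prdm1 lost their calls with iPS replicate 1 (0.126 and 0.0514), iPS replicate 2 (0.123 and 0.0545) or ntES replicate 2 (0.11 and 0.0521) left out. The mean of the germ cell list was 7.72 on each iPS array and 7.56 to 7.61 on ntES arrays. The germ cell helicase Ddx4 differed by -0.27 (adjusted p = 0.104), and Nanos3 by -0.01 (adjusted p = 0.963).

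Of 11 feeder and fibroblast markers, 10 lay above 0, with a median difference of 0.21. By limma's adjusted p, 4 of the 11 rose and 1 fell. Postn and Col1a1 were up by 0.74 and 0.47 (adjusted p = 0.00469 and 0.0235), and Thy1 was at -0.60 (adjusted p = 0.00498). Col1a1 lost its call with iPS replicate 2 (0.112), iPS replicate 3 (0.0813) or ntES replicate 2 (0.0933) left out. The mean of this list was 9.93 to 10.2 on iPS and 10.1 to 10.4 on ntES arrays, which overlapped, and its part in the differences of the meiotic genes was not tested. The 4 genes of the 2-cell-like state, chosen on these samples and so no independent evidence, all rose, Zfp352, Tdpoz3 and Gm5662 by 1.89, 1.85 and 1.69. Their mean was 6.86 to 7.001 on iPS and 8.37 to 8.74 on ntES arrays. Their part in the differences of Hormad1, Syce2 and Tex19.1 was not tested either.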

How the data were processed

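RNA was measured on 6 Affymetrix arrays, 3 per group, with groups and replicate numbers taken from the sample titles. Per the labels' protocols, total RNA was labelled with a WT Terminal Labeling Kit, and GCOS 1.4 is named in the submitters' processing notes. No source used here states the background correction, normalization or genome build. The deposited values were read as log2 expression, a scale taken from the values, with array medians from 7.61 to 7.70, and were used without further scaling. Precision is limited by the number of arrays.

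Gene names came from the platform's annotation (1 symbol for 20746 of 23344 probe sets, several for 1183, none listed for 1415). A gene was represented by its brightest probe set, as 807 genes had several. The difference ntES minus iPS was estimated with limma 3.58.1 in R 4.3.3 over all probe sets (lmFit, eBayes, no covariates, Benjamini-Hochberg), and called at an adjusted p under 0.05. The fit was tested on simulated data. Other settings tried were median centring, quantile normalization, a filter on dim probe sets or on those without 1 symbol, robust priors with a variance trend, weights per array, a replicate block, no variance moderation, the mean of a gene's probe sets, a threshold of 0.01, and leaving out each array. Of 10 gene lists, up to 3 called genes with the largest change were named, or the 2 with the smallest p. The 10 genes and all lists were chosen with earlier results of these data known. Neighbours, profiles and promoters were handled in Python 3.11.15 with pandas 2.3.3. No protein sequence was used here.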

Additional observations from a re-analysis of the deposited data

How the results depend on the processing

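With arrays paired by replicate number (a replicate block), 1983 probe sets and 2 of the 10 genes passed, Hormad1 and Syce2 (adjusted p = 0.0174 and 0.0179), and not Tex19.1 (0.102) or Stag3 (0.0619). Deviations from the group means correlated at -0.43, -0.10 and -0.72 between arrays of the same number. Between iPS and ntES arrays of different numbers they correlated at -0.48 to 0.69. With 3 arrays per group these values cannot show whether arrays of the same number share more than the number. Against 4 of the 10 genes, 13 of the 108 list genes and 2643 probe sets called on the deposited values, quantile normalization gave 7, 44 and 7035, limma without moderated variances 0, 4 and 703, and a threshold of 0.01 gave 0, 7 and 1150. Robust priors with a variance trend gave 5, 19 and 3703 of these. At an unadjusted p under 0.05, 5 of the 10 genes passed without moderated variances. After median centring 2 of the 10 genes passed, Stag3 and, newly, Rec8. Leaving out 1 array at a time gave 0 to 5 of the 10 genes, 6 to 30 list genes and 1014 to 5044 probe sets. Of the 10 genes, Sycp3 alone changed sign, with a range from -0.0721 without ntES replicate 3 to 0.053 without iPS replicate 2 (0.0521 without ntES replicate 1). Over the other settings, with both Hormad1 probe sets included, 110 of the member values kept their sign and their side of the threshold. Another 26 no longer passed and 10 newly passed, while 2, both of Sycp3, changed sign without passing. Array weights could not be fitted, since the estimate did not converge and put 99.86% of the weight on ntES replicate 2. The log transform for linear values was not needed. Fewer arrays and unmoderated variances leave fewer degrees of freedom. Without ntES replicates 1 and 3, 2941 and 5044 probe sets passed, against 2643 with all 6 arrays. The cause of the changed counts was not tested for any setting.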
